A study of Mus musculus with 2 samples.

Results

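Amino acid transporters were examined in kidney RNA of newborn mice. The set was chosen by symbol and held the protein-coding genes of the solute carrier families Slc1, Slc3, Slc7, Slc36, Slc38 and Slc43, together with Slc6a18, Slc6a19, Slc6a20a and Slc6a20b. It held 46 genes of 21474 protein-coding genes measured. Kidneys of B6NCrl mice were taken on postnatal day 0 and profiled by total RNA-seq. Each of 2 libraries held both kidneys of 1 pup, and both pups came from 1 mother. The animals carried no stated allele or treatment, their sex was not collected, and the labels place both libraries in 1 group. There was therefore no condition to compare, and the spread between the littermates (n = 2) is the error of each value; it leaves out variation between litters.

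Cells take up and exchange amino acids through carriers that differ in substrate, in the ion that drives them and in the membrane they sit in. In the kidney, the proximal tubule reclaims filtered amino acids through carriers of its brush border and passes them to the blood through carriers of its basolateral membrane. Several of these carriers work only as a pair in which a heavy subunit of the Slc3 family brings a light subunit of the Slc7 family to the membrane. Loss of the heavy subunit Slc3a1 or of its light subunit Slc7a9 causes cystinuria in humans, loss of SLC7A7 causes lysinuric protein intolerance and loss of SLC6A19 causes Hartnup disorder.

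Levels are given as deposited TPM, a measure of transcript abundance scaled to gene length and to the library's total, so that genes can be set side by side. The libraries held 41584961 expected counts in pup 1 and 48823952 in pup 2. The tissue label was checked against listed markers: all 12 proximal tubule markers were detected, meaning at least 1 TPM in each pup, with summed levels of 2470.74 TPM in pup 1 and 1838.78 TPM in pup 2. Markers of the loop of Henle, distal and connecting tubule, collecting duct, podocyte, nephron progenitor, stroma and endothelium were also present, with both genes of each list detected. Liver markers summed to 16.43 and 10.33 TPM in pups 1 and 2, nerve and glia markers to 5.66 and 5.96 TPM, and skeletal muscle markers to 2.68 and 2.22 TPM. Erythroid markers summed to 18.04 and 16.86 TPM and leukocyte markers to 65.67 and 65.79 TPM, with the T cell gene Cd3e at 0.05 and 0.06 TPM. These are bulk samples, in which fewer cells of a type and less RNA per cell cannot be told apart.

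The newborn kidney expressed most amino acid transporter genes. Of the 46 genes, 34 (73.9%) were detected, beside 61.5% of all protein-coding genes. Their summed level was 794.59 TPM in pup 1 and 724.8 TPM in pup 2 (mean 760 ± 49.3 TPM, SD, n = 2), which is 0.0795% and 0.0725% of all TPM. The median of the 46 mean levels was 8.18 TPM, beside 4.73 TPM over all protein-coding genes. Among detected genes the order was the other way, with a median of 13.5 TPM for the transporters and 17.8 TPM for all protein-coding genes. In the order of mean levels, 12 of 33 pairs of neighbours among the detected genes had ranges that did not overlap between the pups; for the rest the order lies within the spread.

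The Slc38 family, sodium-coupled carriers of neutral amino acids, held the largest part of the transporter RNA, with summed levels of 261.08 TPM in pup 1 and 238.44 TPM in pup 2. The light subunits of Slc7 followed with 167.06 and 149.77 TPM, and the 2 heavy subunits of Slc3 with 152.33 and 135.52 TPM. The Slc1 family summed to 72.18 and 71.87 TPM, Slc43 to 57.22 and 50.61 TPM, and the 4 Slc6 genes to 45.25 and 42.43 TPM. The cationic branch of Slc7 (26.6 and 23.64 TPM) and Slc36 (12.87 and 12.52 TPM) had the lowest sums. The order of these 8 sums was the same in both pups.

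**Figure D1:**
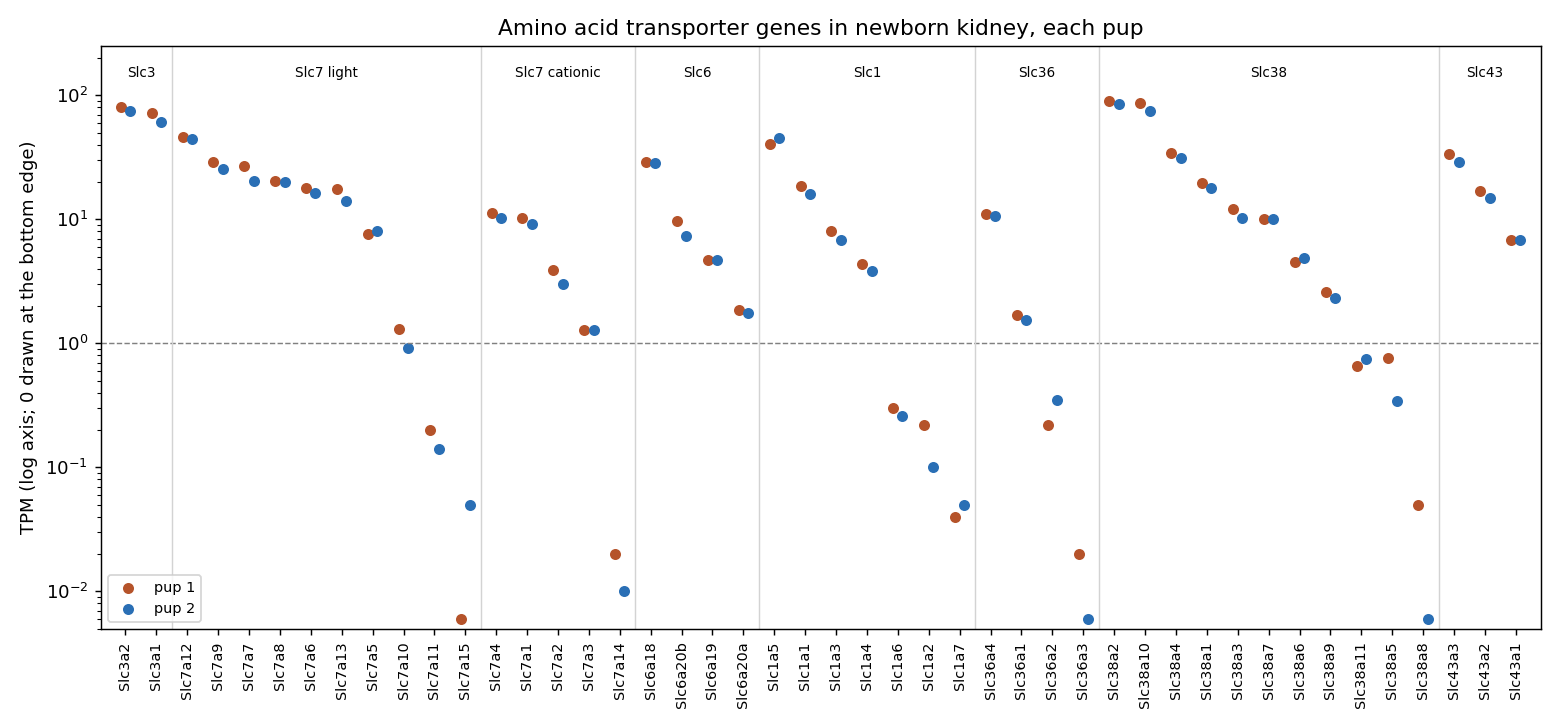
Level of each of the 46 transporter genes in the newborn kidney, grouped by family; the axis is TPM on a log scale and each point is 1 pup, with values of 0 drawn at the bottom edge and the detection limit of 1 TPM dashed. Slc38a2, Slc38a10, Slc3a2 and Slc3a1 stand highest in both pups, and the undetected genes lie below the dashed line in 1 or both pups.

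The heavy subunits were among the 4 highest genes of the set. Slc3a2, known as 4F2hc or CD98, which carries light subunits mostly to basolateral membranes, had 80.38 TPM in pup 1 and 75 TPM in pup 2. Slc3a1, known as rBAT, which carries the cystine transporters to the brush border, had 71.95 and 60.52 TPM. Slc3a2 was higher than Slc3a1 in both pups, by 0.16 and 0.30 on the log2(TPM + 1) scale, a mean difference of 0.23 ± 0.10 (SD, n = 2). That mean is larger than the 0.15 by which the pups' differences were apart.

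The light subunits of rBAT were both present. Slc7a9, whose protein b0,+AT exchanges cystine and dibasic amino acids for neutral ones, had 28.86 TPM in pup 1 and 25.33 TPM in pup 2. Slc7a13, whose protein AGT1 pairs with rBAT in the last segment of the mouse proximal tubule, had 17.55 and 13.98 TPM. Slc7a9 exceeded Slc7a13 by 0.75 ± 0.09 on the log2(TPM + 1) scale (SD, n = 2). Slc3a1 itself exceeded Slc7a9 by 1.26 ± 0.05 (SD, n = 2) on that scale. In TPM, RNA of Slc3a1 exceeded the sum of its 2 light subunits 1.55-fold in pup 1 and 1.54-fold in pup 2.

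Slc7a7 and Slc7a8 were the highest light subunits of Slc3a2. Slc7a7, whose protein y+LAT1 releases dibasic amino acids to the blood, had 26.83 TPM in pup 1 and 20.24 TPM in pup 2. Slc7a8, whose protein LAT2 exchanges neutral amino acids across the basolateral membrane, had 20.55 and 19.99 TPM. The 2 could not be ordered: Slc7a8 minus Slc7a7 was -0.37 in pup 1 and -0.02 in pup 2 on the log2(TPM + 1) scale, the single pair of 16 compared whose mean did not exceed the difference between the pups. Slc7a6, the closely related y+LAT2, had 17.81 and 16.22 TPM and stood below Slc7a7 in both pups. Slc7a5, whose protein LAT1 feeds large neutral amino acids to growing cells, had 7.58 and 8.11 TPM and stood below Slc7a8 in both pups, a mean difference of -1.27 ± 0.09 (SD, n = 2) on that scale. Slc3a2 exceeded Slc7a5 by 3.15 ± 0.13 (SD, n = 2).

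Other light subunits of Slc3a2 were scarce. Slc7a10, the small neutral amino acid carrier Asc-1, had 1.31 and 0.91 TPM, and Slc7a11, the cystine and glutamate exchanger xCT, had 0.20 and 0.14 TPM. Summed over these 6 light subunits the level was 74.28 TPM in pup 1 and 65.61 TPM in pup 2, so that Slc3a2 RNA exceeded its light subunits 1.08-fold and 1.14-fold, a smaller excess than that of Slc3a1 in both pups. RNA levels say nothing of how many protein pairs form.

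Slc7a12, known as Asc-2, whose heavy subunit is not established, was the highest of all light subunits with 46.37 TPM in pup 1 and 44.8 TPM in pup 2. Slc7a15, a mouse relative of the rBAT partners, had 0 and 0.05 TPM. Of the 10 light subunit genes, 7 were detected in both pups.

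**Figure D2:**
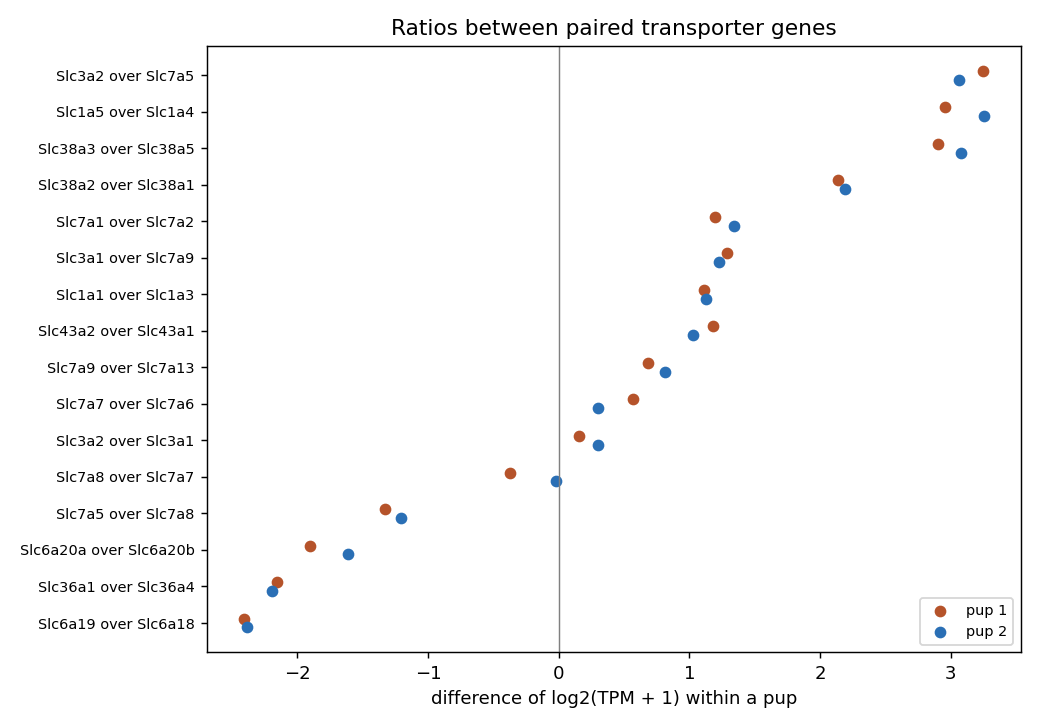
Differences between paired transporter genes in each pup, as log2(TPM + 1) of the first gene minus that of the second; each point is 1 pup. In 15 of the 16 pairs the mean is larger than the distance between the pups, and Slc7a8 against Slc7a7 is the exception. The pairs were chosen with earlier results of these data known, so the count does not speak for pairs in general.

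The cationic branch of Slc7 carries arginine, lysine and ornithine without a heavy subunit. Slc7a1, the widely expressed arginine carrier CAT-1, had 10.18 TPM in pup 1 and 9.16 TPM in pup 2. Slc7a2, or CAT-2, had 3.88 and 3.01 TPM, below Slc7a1 by a log2(TPM + 1) difference of 1.27 ± 0.10 (SD, n = 2, Slc7a1 minus Slc7a2). Slc7a4, a relative for which no transport alone is established, had the highest mean of the branch with 11.23 and 10.18 TPM. Slc7a3, or CAT-3, was near the detection threshold with 1.29 and 1.28 TPM, and Slc7a14 had 0.02 and 0.01 TPM.

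The 4 Slc6 genes belong to a family of sodium-coupled carriers, some of which act at the brush border. Whether each of the 4 encodes a working carrier was not measured. Slc6a18, whose mouse protein B0AT3 takes up glycine and other neutral amino acids, had 29.09 TPM in pup 1 and 28.61 TPM in pup 2. Slc6a19, whose protein B0AT1 is the main neutral amino acid carrier of the adult brush border, had 4.68 and 4.69 TPM, below Slc6a18 in both pups, with a difference of -2.39 ± 0.02 (SD, n = 2) on the log2(TPM + 1) scale. The 2 genes are neighbours on the minus strand of chromosome 13 (GRCm38), with Slc6a18 at chr13:73661752-73678023, Slc6a19 at chr13:73679745-73704865 and 1722 bases between them. Their levels thus differed widely within 1 short stretch of the chromosome.

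The coding part of Slc6a19 RNA was smaller still; it is described here because of its values, which were seen first. Transcripts annotated as coding held 29.3% of its TPM in pup 1 and 9.38% in pup 2, and the coding transcript Slc6a19-201 had 1.37 and 0.44 TPM. A transcript annotated as processed, Slc6a19-202, held 49.08% and 51.01%. With coding transcripts alone, an alternative added after the data were seen, Slc6a19 minus Slc6a18 was -4.01 ± 0.49 (SD, n = 2) on the log2(TPM + 1) scale. That spread is wider than the one at gene level.

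Cltrn, collectrin, is a partner protein that carriers of this group need at the brush border of the kidney. It had 453.52 TPM in pup 1 and 402.87 TPM in pup 2. Cltrn thus stood above all 4 of the Slc6 genes in each pup.

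Slc6a20a, the proline carrier SIT1 or IMINO, and its tandem copy Slc6a20b lie 2205 bases apart on the minus strand of chromosome 9, Slc6a20b at chr9:123590800-123632565 and Slc6a20a at chr9:123634770-123678885. The coding sequences were 91.9% identical over their aligned bases. The stretches printed here, 120 coding bases of each copy from chromosome 9, show a part of the coding sequence that tells the copies apart; capitals mark the 22 bases that differ. They are coding bases 2 to 121 of Slc6a20a and 131 to 250 of Slc6a20b in the GENCODE M21 transcripts, in which the coding sequence of Slc6a20b begins earlier.
Slc6a20a: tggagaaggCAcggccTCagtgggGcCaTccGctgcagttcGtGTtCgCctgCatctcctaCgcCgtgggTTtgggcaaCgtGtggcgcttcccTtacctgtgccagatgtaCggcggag
Slc6a20b: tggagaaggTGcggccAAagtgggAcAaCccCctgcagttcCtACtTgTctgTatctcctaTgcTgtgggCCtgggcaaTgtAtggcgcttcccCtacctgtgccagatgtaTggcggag

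Slc6a20a had 1.85 TPM in pup 1 and 1.75 TPM in pup 2. Slc6a20b had 9.63 and 7.38 TPM, so that Slc6a20a minus Slc6a20b was -1.75 ± 0.21 (SD, n = 2) on the log2(TPM + 1) scale. Of all 50-base windows of Slc6a20a transcripts, 15.3% also occurred in Slc6a20b, and 7.24% of those of Slc6a20b occurred in Slc6a20a. The split of reads between the copies is a model estimate, and both values are uncertain to that extent.

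Slc1 holds the acidic and some neutral carriers. Slc1a5, the glutamine exchanger ASCT2, had 40.62 TPM in pup 1 and 44.85 TPM in pup 2. It exceeded Slc1a4, the related exchanger ASCT1, which had 4.36 and 3.82 TPM, by 3.10 ± 0.21 (SD, n = 2) on the log2(TPM + 1) scale. Slc1a1, whose protein EAAT3 reclaims glutamate and aspartate at the brush border, had 18.57 and 16.01 TPM. Slc1a3, best known as the glial glutamate carrier GLAST, had 8.07 and 6.78 TPM, below Slc1a1 by a log2(TPM + 1) difference of 1.12 ± 0.01 (SD, n = 2, Slc1a1 minus Slc1a3). The glutamate carriers of nerve and retina, Slc1a2, Slc1a6 and Slc1a7, stayed between 0.04 and 0.30 TPM in both pups.

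Within Slc38, Slc38a2, the system A carrier SNAT2, which is induced when amino acids are scarce, was the highest gene of the whole set with 90.36 TPM in pup 1 and 85.75 TPM in pup 2. Slc38a10, a less characterised relative, had 86.01 and 74.85 TPM, a range that overlaps that of Slc38a2. Slc38a4, a system A carrier best known in liver and placenta, had 34.06 and 31.26 TPM. In scaled counts Slc38a4 was 1.03-fold higher in pup 1 than in pup 2, and the 3 liver markers were 2.16-fold (Alb), 1.40-fold (Cyp2e1) and 1.17-fold (Apoa1) higher; a part of liver RNA in the Slc38a4 level was not tested.

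Slc38a1, the carrier SNAT1, had 19.77 and 17.98 TPM in pups 1 and 2, below Slc38a2 by a log2(TPM + 1) difference of 2.16 ± 0.04 (SD, n = 2, Slc38a2 minus Slc38a1). Slc38a3, or SNAT3, which takes up glutamine for ammonia production in the proximal tubule, had 12.15 and 10.3 TPM, and its relative Slc38a5, or SNAT5, had 0.76 and 0.34 TPM and was not detected, a log2(TPM + 1) difference of 2.99 ± 0.12 (SD, n = 2, Slc38a3 minus Slc38a5). Slc38a1, Slc38a2 and Slc38a4 lie in that order on the minus strand of chromosome 15 with no other protein-coding gene between them. All of these neighbours were detected in both pups.

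Slc38 also has lysosomal members. Slc38a7, which exports glutamine and asparagine from lysosomes, had 10.1 and 10.03 TPM in pups 1 and 2, and Slc38a9, which senses lysosomal arginine for mTORC1, had 2.59 and 2.32 TPM. Slc38a6 had 4.57 and 4.86 TPM, but 22.8% of its 50-base windows also occurred in other genes, and 10.3% of all its windows in D10Wsu102e, so its level is uncertain. Slc38a11 had 0.66 and 0.75 TPM, and Slc38a8 had 0.05 and 0 TPM. Of the 11 Slc38 genes, 8 were detected.

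Slc43 holds carriers that work without an ion gradient. Slc43a3, now known as a carrier of purine bases, was the highest with 33.57 TPM in pup 1 and 28.86 TPM in pup 2. Slc43a2, the basolateral carrier LAT4 for branched-chain amino acids, had 16.79 and 14.94 TPM. It exceeded Slc43a1, the related LAT3, which had 6.86 and 6.81 TPM, by 1.10 ± 0.11 (SD, n = 2) on the log2(TPM + 1) scale.

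Among the proton-coupled carriers of Slc36, Slc36a4 had 10.94 TPM in pup 1 and 10.63 TPM in pup 2. Slc36a1, the lysosomal and intestinal carrier PAT1, had 1.69 and 1.54 TPM, below Slc36a4 in both pups, with a difference of -2.17 ± 0.03 (SD, n = 2) on the log2(TPM + 1) scale. Slc36a2, or PAT2, which reclaims proline and glycine in the human kidney, had 0.22 and 0.35 TPM and was not detected. Slc36a3 had 0.02 and 0 TPM. Slc36a3, Slc36a2 and Slc36a1 are neighbours on chromosome 11, so that the detected Slc36a1 lies beside the undetected pair.

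The other 12 transporter genes were below 1 TPM in at least 1 pup, and 3 of them (Slc36a3, Slc38a8 and Slc7a15) were at 0 in 1 pup. The limit that a count of 0 sets is 3 counts, which is 0.0721 CPM (counts scaled to the library's depth) in pup 1 and 0.0614 CPM in pup 2, so a gene at 0 was not detectable at this depth and is not shown to be absent.

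Carriers of other families were listed for comparison. Of the plasma membrane carriers, the taurine carrier Slc6a6 had 48.56 TPM in pup 1 and 43 TPM in pup 2, the renal peptide carrier Slc15a2 had 36.49 and 44.47 TPM, and Slc6a13, or GAT2, had 39.17 and 34.86 TPM. Slc16a10, the aromatic amino acid carrier TAT1, had 6.04 and 5.86 TPM, the glycine carrier Slc6a9 had 7.3 and 6.85 TPM, and Slc6a15 had 5.1 and 3.53 TPM. The intestinal peptide carrier Slc15a1 (0.97 and 0.57 TPM) and Slc6a14 (0.13 and 0.12 TPM) were not detected. Slc15a2 is thus far above Slc15a1 in both pups.

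In lysosomes, the cystine exporter Ctns had 18.79 and 17.36 TPM in pups 1 and 2 and the cationic exporter Pqlc2 had 19.71 and 16.97 TPM. In mitochondria, the aspartate and glutamate carriers Slc25a12 (41.7 and 40.82 TPM) and Slc25a13 (46.77 and 42.45 TPM) stood above the ornithine carrier Slc25a15 (22.38 and 18.86 TPM) and the glutamate carrier Slc25a22 (13.51 and 11.55 TPM). All 6 of these organelle carriers were detected in both pups.

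Several transporter genes give more than 1 transcript. Of the 26 genes with a mean of at least 5 TPM, 15 had a leading transcript with at least 80% of the gene's TPM in both pups, and 11 did not. The share over all genes was not computed, so these counts describe the set alone. Among the 11, Slc38a1 was divided among 3 transcripts with the same coding length of 1455 bases: Slc38a1-201 held 51.26% in pup 1 and 50.29% in pup 2, Slc38a1-203 held 31.04% and 32.98%, and Slc38a1-202 held 17.7% and 16.73%. Its isoforms therefore differ in RNA and not in coding length.

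Slc7a12 was different. Its full-length transcript Slc7a12-201, with 1395 coding bases, held 31.56% of the gene's TPM in pup 1 and 28.86% in pup 2. Slc7a12-203 (51.25% and 41.19%) and Slc7a12-202 (17.18% and 29.95%) each have 582 coding bases. The gene-level TPM of the highest light subunit is therefore mostly assigned to transcripts with short coding sequences.

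For Slc6a18, Slc6a18-201 with 1626 coding bases held 67.31% and 68.26% in pups 1 and 2, Slc6a18-202 with 1656 bases 20.62% and 21.43%, and Slc6a18-203 with 1731 bases 12.07% and 10.31%. Slc38a10 was divided between Slc38a10-201 (34.37% and 38.79%) and Slc38a10-216 (37.41% and 34.64%), which changed places between the pups, with a processed transcript, Slc38a10-207, at 11.99% and 12.28%. In Slc1a5 a transcript with a retained intron, Slc1a5-202, held 24.83% in pup 1 and 21.4% in pup 2, beside 72.36% and 73.81% for the coding Slc1a5-201. Slc7a1-202, whose coding end is not found in the annotation, held 74.11% and 70.18% of Slc7a1. The other 5 were Slc38a3, led by Slc38a3-209 with 77.32% in pup 1 and 79.69% in pup 2, Slc43a1 (Slc43a1-204, 67.67% and 68.05%), Slc43a2 (Slc43a2-202, 76.73% and 74.12%), Slc43a3 (Slc43a3-201, 81.8% and 78.24%) and Slc7a4 (Slc7a4-201, 69.86% and 69.12%).

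Over the 34 detected genes, coding transcripts held at least 95% of TPM in both pups for 21. Transcripts of a non-coding type held over 20% in both for 3, which were Slc6a19, Slc1a5 and Slc38a10. These counts also describe the set alone, without a share over all genes. For Slc1a5 the coding share was 72.4% in pup 1 and 73.8% in pup 2, and for Slc38a10 76.0% and 75.7%. Slc7a4 had 73.6% and 71.0% in coding transcripts, and the rest of its TPM, 26.4% and 29.0%, was in 5 transcripts that the M21 annotation does not list, so that their type is not known and its coding share is a lower bound. Slc7a10, with a mean of 1.11 TPM but under 1 TPM in pup 2, had 26.9% in coding transcripts in pup 1 and 23.9% in pup 2, also a lower bound: its leading transcript, at 68.96% and 76.01%, is likewise not listed there. In 7 detected genes the deposited values hold a single transcript, among them Slc38a2 and Slc3a1. The M21 annotation lists more transcripts for some of them, such as Slc7a7. Shares per transcript are model estimates, and whether a transcript is translated was not measured.

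**Figure D3:**
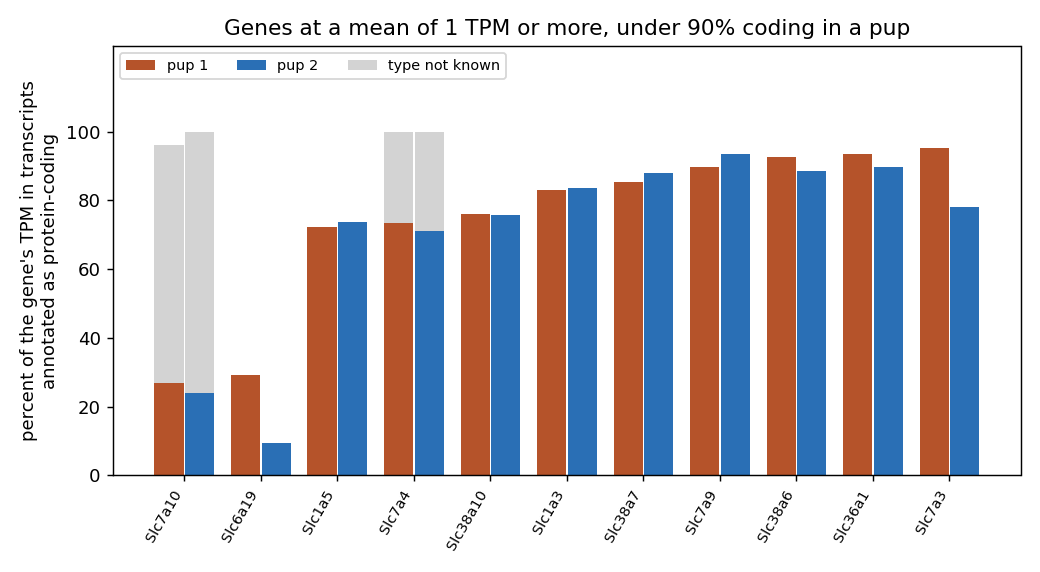
Percent of a gene's TPM assigned to transcripts annotated as protein-coding, for the 11 transporter genes with a mean of 1 TPM or more and a share under 90% in a pup; each bar is 1 pup, and grey tops mark transcripts whose type is not known. Slc6a19 lies at 29.3% in pup 1 and 9.38% in pup 2 with no grey part, while most of the Slc7a10 bars is grey.

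The pups were then compared with each other, using expected counts scaled by TMM; a gene was measured where 1 pup or both had 50 expected counts or more. None of the 35 transporter genes so measured was 1.5-fold higher in pup 1, beside 0.719% of 15150 genes of all kinds, and none was 1.5-fold lower, beside 1.84%. The transporter folds of pup 1 over pup 2 ran from 0.868 for Slc1a5 to 1.28 for Slc7a11, and 24 of 35 were above 1, beside 49.3% of all genes. On the scale of deposited TPM, 31 of 35 were above 1, beside 68.5% of all genes. With 1 library per pup these differences have no replicate check.

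By exact 95% binomial intervals, counting error alone did not cover the difference for 11 of the 35 genes, beside 40.4% of all 15150 genes. Of these, 8 were higher in pup 1, beside 20.0% of all genes, and 3 lower, beside 20.4%. Slc7a7 was the farthest of those higher in pup 1, with 1626.03 expected counts in pup 1 and 1509.01 in pup 2 and a scaled fold of 1.25 (interval 1.16 to 1.34). Its log2 difference of 0.32 exceeded 0.29, the 95th percentile of absolute differences of all genes at 10 to 100 TPM. Of the 21 genes of the set at that level it was the only one to do so, which is near the share that a 95th percentile leaves for any genes. Slc6a20b (1.22-fold), Slc7a13 (1.18), Slc43a3 (1.14), Slc3a1 (1.12), Slc1a1 (1.11), Slc43a2 (1.09) and Slc38a10 (1.08) were also higher. Slc6a18 (0.956), Slc7a5 (0.907) and Slc1a5 (0.868) were lower in pup 1 in scaled counts; in TPM Slc6a18 was slightly higher in pup 1, at 29.09 and 28.61 TPM.

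Most proximal tubule markers were higher in pup 1, as were some brush border and basolateral genes of the set. Others of these, such as Slc6a18 (0.956-fold), Slc7a8 (0.967-fold) and Slc6a20a (0.998-fold), were not. Of the 12 markers, 10 were higher in pup 1, with a median fold of 1.17; Slc34a1 was 1.33-fold, Ass1 1.31-fold and Lrp2 1.01-fold higher, while Slc22a7 was at 0.802-fold and Slc5a12 at 0.970-fold, the second being higher in pup 1 in TPM. Of the 2 nephron progenitor markers, Six2 had 9.21 TPM in pup 1 and 15.11 TPM in pup 2, and Cited1 had 99.22 and 95.54 TPM. In scaled counts both were lower in pup 1, Six2 at 0.575-fold, past the 1.5-fold limit, and Cited1 at 0.977-fold. Cited1 was thus lower in pup 1 in scaled counts and higher in TPM. The part of tubule or progenitor content in the transporter differences was not tested.

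**Figure D4:**
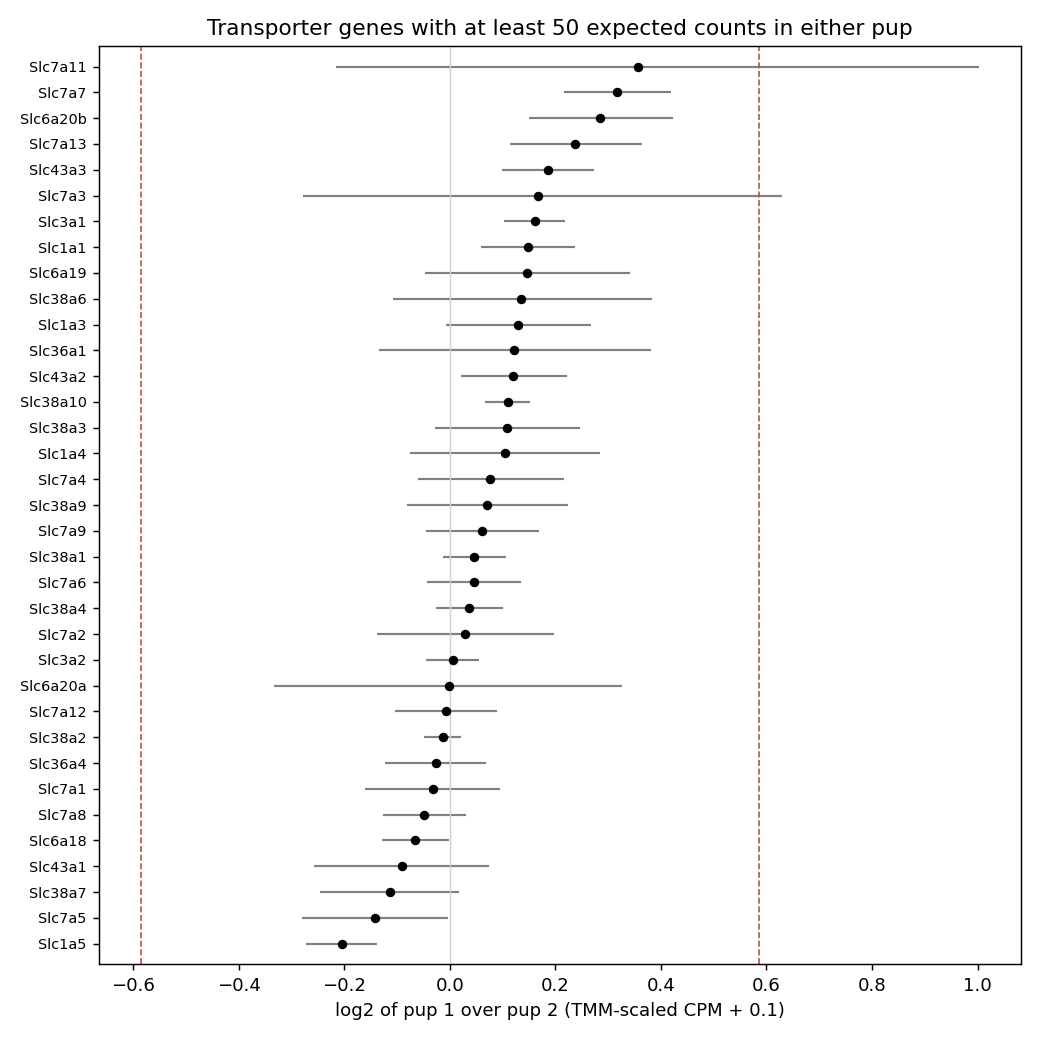
Log2 ratio of pup 1 over pup 2 in scaled counts for the 35 transporter genes that reached 50 expected counts in a pup, with exact 95% binomial counting intervals as lines. Every point lies inside the dashed 1.5-fold bounds; Slc7a11 has the highest point and the widest interval, and Slc7a7 comes next.

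Promoter sequences of the set were read from RefSeq (GRCm38.p6), 250 bases before to 50 bases after each start, for the 34 genes with an entry, in 45 windows. Searches covered both strands. The core of the amino acid response element, TGATGNAA, which ATF4 and its partners bind, occurred in 4 of the 45 windows, of Slc1a4, Slc7a11 and Slc7a7, and in 3.969% of 32851 windows of all genes. The 2 windows of Slc7a7 with a core overlap and share 1 of its 2 distinct cores, and its other windows hold none. Atf4 itself had 96.1 TPM in pup 1 and 92.2 TPM in pup 2. Hnf4a, a transcription factor of the proximal tubule, had 20.05 and 17.24 TPM. Nfe2l2, the oxidative stress factor NRF2 known to act on Slc7a11, had 79.94 and 77.12 TPM.

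The windows of Slc7a11 and Slc1a4 are printed because they hold such a match and the genes differ in level, with Slc7a11 not detected and Slc1a4 detected; capitals mark the matches. Slc7a11 (chr3:50443564-50443863, minus strand) holds 2 amino acid response cores, beginning 66 and 47 bases before the start, and Slc1a4 (chr11:20332664-20332963, minus strand) holds 1 that begins 4 bases before it.
Slc7a11: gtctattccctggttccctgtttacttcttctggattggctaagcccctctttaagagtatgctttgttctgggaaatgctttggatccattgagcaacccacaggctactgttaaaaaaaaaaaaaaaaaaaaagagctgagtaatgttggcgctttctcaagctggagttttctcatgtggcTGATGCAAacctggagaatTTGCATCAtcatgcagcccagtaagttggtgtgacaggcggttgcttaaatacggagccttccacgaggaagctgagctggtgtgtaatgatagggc
Slc1a4: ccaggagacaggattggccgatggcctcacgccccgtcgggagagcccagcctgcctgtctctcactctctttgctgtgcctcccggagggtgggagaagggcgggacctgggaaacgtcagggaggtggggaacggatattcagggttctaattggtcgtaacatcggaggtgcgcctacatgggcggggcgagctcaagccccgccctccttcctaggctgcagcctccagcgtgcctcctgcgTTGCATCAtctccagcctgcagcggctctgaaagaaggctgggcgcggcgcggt

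A match describes the letters of the window and is not a measured binding site. Levels are given per gene, and which start of a gene was used was not measured. Of the genes with such cores, Slc7a11 had 0.20 and 0.14 TPM in pups 1 and 2, Slc1a4 had 4.36 and 3.82 TPM and Slc7a7 had 26.83 and 20.24 TPM.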

How the data were processed

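Total RNA-seq was made from 10 ng of kidney RNA above 200 nt, to which spike-ins had been added, per the labels. For each library the authors deposited values per gene and per transcript. Per the file headers these are the expected count (reads assigned by a model, without normalization), TPM, FPKM, posterior means of both and, for transcripts, the percent of the gene's TPM (IsoPct). The text deposited with the libraries names mm10 and GENCODE M4. Aligner, quantification version and strand setting were not given in the sources used here. Reads that fit several places are divided among genes and transcripts by a model.

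Genes were named by identifier from GENCODE M21 (GRCm38), which named 42462 of 43346. Depth was 41584961 expected counts in pup 1 and 48823952 in pup 2. The members, marker lists and pairs were chosen with earlier results of these data known. A gene was detected where each pup reached 1 TPM. Pair differences were computed per pup on log2(TPM + 1), where low genes appear closer than they are, and set against the difference between the pups. For the pups, expected counts were rounded, scaled by TMM in edgeR 4.0.16 (R 4.3.3), and given as ratios of CPM + 0.1 for genes reaching 50 expected counts in a pup. The intervals used the same rounded counts, and 1.5-fold was the limit. Exact binomial intervals and the limit for a count of 0 cover counting error only. With 1 residual degree of freedom no p-values were computed. In simulated data for pup 1 over pup 2, drawn for 43346 genes, 98% of 50 genes changed 2-fold and 100% of 50 changed 3-fold passed that limit, against 0.584% of 14908 unchanged genes. The spread of the simulated counts was set by hand, and no rate was computed for genes changed by 1.5-fold itself. These rates therefore hold for that setting only.

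Every member at a mean of 1 TPM or more is given by pup, as are the listed partner genes that are reported; isoforms are named for members at a mean of 5 TPM or more whose leading transcript held under 80% in either pup. Shared sequence was searched as 50-base windows of M21 transcripts. Tables and figures used Biopython 1.88, Matplotlib 3.10.9, SciPy 1.17.1, NumPy 2.4.6 and pandas 2.3.3 under Python 3.11.15. Alternatives were another scaling (DESeq2 1.42.0 size factors), other filters, pseudocounts and limits, posterior means, FPKM and each pup left out. A few listed genes and motifs are not reported here.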

Additional observations from a re-analysis of the deposited data

How the results depend on the processing

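Of 133 alternative values, 127 were scored as kept, 6 moved and none reversed. A pair was kept with its sign and side of the spread, a count within 1.5-fold of its main value, and the summed level within 1 SD. Thus 26 genes detected at a limit of 5 TPM, against 34, were scored as kept. So were 13 divided isoform patterns with posterior means, against 11. All 96 alternatives of the single gene pairs were scored as kept, including those with a pup left out, which could not fail. The summed level of the transporters was 958.723 TPM when rescaled over protein-coding genes alone, against 760 TPM, which follows from the smaller total. The count of neighbours in the level order that were apart was 19 with FPKM, against 12. The count of genes 1.5-fold higher in pup 1 was 2 with no filter on low counts and 1 with at least 10 expected counts, against 0, and the count lower in pup 1 was 3 and 2, against 0. With at least 10 expected counts these were Slc38a5 (40 counts in pup 1 and 22 in pup 2), higher in pup 1, and Slc38a11 and Slc36a2, lower, all under the 50 counts otherwise asked for. With a pup left out, detected transporters numbered 34 to 35, their summed level was 724.8 to 794.59 TPM and the genes with a divided isoform pattern numbered 10 to 11. The differences of single pairs kept their sign with each pup left out, which follows from both pups having the same sign in every pair. The summed level of 1 pup likewise always lies within 1 SD of the mean of 2. The count of pairs beyond the spread, and the fold calls, have no value with a pup left out, since they need both pups. Coding transcripts alone, which leaves out transcripts of unknown type, the level order in posterior means and FPKM, and the isoform alternatives were added after the data were seen. No paired analysis was possible because the labels give 1 group. Depth limits the 11 transporter genes under 50 expected counts in both pups.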
